A study of Homo sapiens with 15 samples.

Results

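The 5 genes described here encode metabolic enzymes of the gut and liver: CPS1, HGD, GPX2, ADH1C and CES2. They are 5 of 60671 genes in the count table, and they were chosen by name from measured values of these same libraries, by group and by replicate number. Their differences are therefore given as a description, with no p-value printed for any of the 5. Statements below on which of the 5 passed a threshold, and how many, belong to that description and test nothing about them. All 5 passed the filter on low counts, together with 16155 other genes. The cells were HT115, an established human colorectal cancer line, carrying doxycycline-inducible constructs. All 15 libraries, the GFP controls included, came from cells given 0.5 µg/ml doxycycline for 24 h. The induced protein was GFP, V5-tagged wild-type SOX9 (labelled CSOX9, here SOX9_WT), or a V5-tagged mutant SOX9 named M228, M303 or M379. Each group has 3 libraries, although the treatment protocol speaks of duplicates. The series text calls M303 truncated and, like the labels, does not describe M228 or M379. The labels also do not say whether the cells were 1 clone or a pool, whether the 3 libraries came from separate cultures, or what a replicate number marks. The p-values of other genes therefore reflect library-to-library spread, possibly technical only.

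SOX9 is a transcription factor of the intestinal crypt base, where stem and Paneth cells reside. Absorptive cells that leave the crypt switch on enzymes for handling nutrients, alcohols and drugs, many of which the liver also makes. CPS1 makes carbamoyl phosphate in mitochondria, the entry step of the urea cycle, in hepatocytes and small-intestinal epithelium. HGD (homogentisate dioxygenase) opens the ring of homogentisate during tyrosine breakdown, and its loss causes alkaptonuria. GPX2 is the gastrointestinal glutathione peroxidase, which reduces peroxides with glutathione. ADH1C is a class I alcohol dehydrogenase that oxidises ethanol and retinol to aldehydes. CES2 is the main carboxylesterase of the intestine and hydrolyses ester drugs, irinotecan among them.

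In the annotation used for counting (Ensembl 101, GRCh38), CPS1 (ENSG00000021826) lies on chromosome 2 at 210477682 to 210679107, plus strand. HGD (ENSG00000113924) lies on chromosome 3 at 120628172 to 120682269, minus strand. GPX2 (ENSG00000176153) lies on chromosome 14 at 64939152 to 64942905, minus strand. ADH1C (ENSG00000248144) lies on chromosome 4 at 99336497 to 99352746, minus strand, beside ADH1A and ADH1B. CES2 (ENSG00000172831) lies on chromosome 16 at 66934444 to 66945096, plus strand.

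Sequence upstream of a listed start is shown for the 3 genes whose values turned most on the construct or on the replicate number. The sequences are from RefSeq, build GRCh38.p14, read 5′ to 3′ on the gene's strand, and those of CPS1 and ADH1C end at the base before the RefSeq start. For GPX2, 160 of the 250 bases lie in exons of the annotation used for counting, so only 30 bases around each of 2 matches are given. For CPS1 the downstream start of 3 listed starts is shown, so this window lies inside the gene span given above. Which start these cells use was not tested. Capitals mark matches, on either strand, to the letters named after the sequences.
CPS1, chr2:210593105-210593354, plus strand: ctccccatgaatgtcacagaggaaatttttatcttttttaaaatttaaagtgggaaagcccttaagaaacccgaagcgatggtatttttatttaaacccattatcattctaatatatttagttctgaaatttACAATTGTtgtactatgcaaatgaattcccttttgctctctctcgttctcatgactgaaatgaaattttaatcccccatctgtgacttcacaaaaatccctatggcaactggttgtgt
ADH1C, chr4:99352747-99352996, minus strand: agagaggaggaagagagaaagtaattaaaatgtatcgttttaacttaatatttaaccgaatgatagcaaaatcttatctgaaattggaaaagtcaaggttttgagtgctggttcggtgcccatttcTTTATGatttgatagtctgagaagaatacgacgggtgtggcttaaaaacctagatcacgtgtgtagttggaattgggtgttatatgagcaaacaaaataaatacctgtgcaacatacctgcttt
GPX2, chr14:64942848-64942877, minus strand: acctgtttttGCTAAGTCAtcctggggatg
GPX2, chr14:64942819-64942848, minus strand: gctcaaagctccATTGTtagatcctttctg

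Letters searched on both strands included, for a SOX core, ACAAT or, as its second form, ACAAAG. An antioxidant response element was read as TGACNNNGC. A CDX site was read as TTTATG, and a TATA box as TATAAA. Among 35116 windows of 250 bases, 24.6% held the SOX core, 13.7% its second form, 10.9% the antioxidant response element, 9.64% the CDX site and 10.7% the TATA box. CPS1 held ACAAT 118 bases upstream of the start, overlapping a match on the other strand 115 bases upstream, and the window at another of its listed starts held a match on the other strand 197 bases upstream. GPX2 held the antioxidant response element 122 bases upstream on the other strand and ACAAT 91 bases upstream, also on the other strand. ADH1C held TTTATG 124 bases upstream. No match to these 5 patterns was found in the windows at the 2 listed starts of CES2, of which the first is 69.6% G and C. The CPS1 window shown is 33.6% G and C, with 48.4% and 40% at its other listed starts. That of ADH1C is 35.6%, and the median over all windows is 58%. These matches describe letters only and were not compared with any measure of binding.

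The shallowest library was GFP replicate 1, with 3054755 reads, and the deepest was M303 replicate 1, with 31704249. Levels are CPM, the reads of a gene relative to the library total, scaled between libraries by the trimmed mean of M-values (TMM), and 3 reads correspond to 0.982 CPM in the shallowest library and 0.0946 CPM in the deepest. SOX9 itself lay at 97.6 to 158 CPM in the GFP libraries, 186 to 243 CPM in SOX9_WT and 1900 to 3039 CPM in the mutants. SOX9_WT stood 0.84 ± 0.18 (SE, log2) above GFP with no overlap between libraries, a difference that did not pass the test. Each mutant passed it at 4.14 to 4.66 log2 units above GFP, and at 3.30 to 3.82 above SOX9_WT. Between mutants and SOX9_WT the construct and the SOX9 level thus differ together. The part of either in the enzyme differences was not tested. All 10 gut epithelial markers were above 1 CPM in every library, none of 12 hepatocyte markers was, and the summed hepatocyte markers reached no more than 3.97 CPM. Of 10 mature enterocyte markers 3 were above 1 CPM in every library, and APOA4 had no read. Among the fibroblast markers PDGFRA had no read, and the list summed to 3.34 to 6.28 CPM. The leukocyte list, at 636 to 3544 CPM, consisted nearly wholly of LYZ, which Paneth cells also make, and CD3E had no read. Ribosomal protein genes took 6.61% of the reads of GFP replicate 2, which stood apart from the other 14 libraries, at 3.42% to 4.52%.

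GPX2 had the highest level per length of the 5 enzymes and was lower in M228 than in all 12 other libraries. In GFP it was read at 181, 483 and 228.2 CPM in replicates 1, 2 and 3. SOX9_WT gave 202, 277 and 260 CPM, and M228 gave 61.1, 79.4 and 84.1 CPM. M303 gave 134, 185 and 166 CPM, and M379 gave 185, 227.5 and 219.6 CPM. The highest M228 library thus lay below the lowest library of any other group, while GFP replicate 2 stood well above the rest. The group means ran in the order GFP (298 ± 162 CPM, SD, n = 3), SOX9_WT (246 ± 39.4), M379 (211 ± 22.5), M303 (162 ± 25.5) and M228 (74.9 ± 12.2). GFP overlapped with SOX9_WT, M379 and M303, and M303 lay wholly below SOX9_WT. M303 also lay below M379, but by a narrow margin, with nearest libraries at 184.7 and 185.1 CPM. In bulk RNA, fewer cells that express a gene and less RNA per cell cannot be told apart, here or below.

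M228 minus GFP gave a GPX2 log2 fold change of −2.0 ± 0.28 (SE), which is 3.99-fold lower. It was called, meaning an adjusted p under 0.05 in edgeR's quasi-likelihood test over 16160 genes, as were 0.241% of all genes tested and 1 of the 5 enzymes. The call was kept in each of 6 fits that left out 1 library of either group, with estimates from −2.25 to −1.46, the last without GFP replicate 2. M228 minus SOX9_WT gave −1.72 ± 0.28, also called. That call was lost without M228 replicate 1 (−1.59), without M228 replicate 2 (−1.76) or without SOX9_WT replicate 2 (−1.62). For M303 minus GFP the estimate was −0.89 ± 0.28 with overlapping libraries and no call, and it shrank to −0.36 without GFP replicate 2. With no filter on low counts it was −0.86 ± 0.17 and was called, as were 0.568% of the 37339 genes then tested. M379 minus GFP, at −0.50 ± 0.27, moved to 0.03 without that library, and SOX9_WT minus GFP, at −0.28 ± 0.27, moved to 0.26. Against SOX9_WT, M303 differed by −0.61 ± 0.27 and M379 by −0.22 ± 0.27, neither called. LYZ, a lysozyme gene, was also low in M228, at 1013, 836 and 636 CPM against 2429, 1404 and 1615 CPM in GFP and 3543, 2866 and 2567 CPM in SOX9_WT. It fell in M228 minus SOX9_WT (−1.85 ± 0.27, adjusted p 0.0047 in edgeR), and in M228 minus GFP it gave −1.13 ± 0.26 (adjusted p 0.105), or −1.12 ± 0.13 (0.000716) with the replicate number as a block. The part of LYZ and of the high ribosomal share of GFP replicate 2 in the GPX2 differences was not tested.

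CPS1 was scarce, resting on 8 to 143 reads per library, and was highest in SOX9_WT. The GFP libraries held 2.43, 1.19 and 3.06 CPM, and SOX9_WT held 3.70, 5.77 and 5.16 CPM. M228 held 1.28, 1.27 and 1.47 CPM, the narrowest spread of the 5 groups. M303 held 4.27, 1.62 and 1.90 CPM, and M379 held 2.48, 2.34 and 1.96 CPM. Every SOX9_WT library exceeded every GFP, M228 and M379 library, and M303 overlapped with SOX9_WT through its replicate 1 alone. Group means were 4.87 ± 1.06 CPM (SD, n = 3) in SOX9_WT, 2.59 ± 1.46 in M303, 2.26 ± 0.269 in M379, 2.23 ± 0.95 in GFP and 1.34 ± 0.112 in M228, and each neighbouring pair in this order overlapped.

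M228 minus SOX9_WT gave a CPS1 log2 fold change of −1.83 ± 0.39 (SE), 3.56-fold lower, and was called. In that comparison 0.569% of all genes tested were called, 0.285% in the lower direction, and 3 of the 5 enzymes (CPS1, GPX2 and CES2) were among the latter. The CPS1 call was lost in each of 6 fits without 1 library, with estimates of −2.01, −1.69 and −1.79 without SOX9_WT replicates 1, 2 and 3, and of −1.79, −1.81 and −1.92 without M228 replicates 1, 2 and 3. SOX9_WT minus GFP gave 1.11 ± 0.39, which was not called although the libraries did not overlap. In SOX9_WT minus GFP 0.0309% of all genes were called, and none of the 5 enzymes. M379 minus SOX9_WT, at −1.10 ± 0.36, and M303 minus SOX9_WT, at −0.88 ± 0.34, were not called either. With no filter on low counts the M379 difference was called (−1.10 ± 0.29), as were 0.367% of all genes. The M303 estimate depended on 1 library, since without M303 replicate 1 it was −1.46. Against GFP, CPS1 differed by −0.72 ± 0.43 in M228, 0.24 ± 0.38 in M303 and 0.02 ± 0.40 in M379, all with overlapping libraries, and the M303 value was −0.35 without M303 replicate 1. These values moved with the GFP libraries kept. Without GFP replicate 3 they were −0.20, 0.76 and 0.54, and SOX9_WT minus GFP was 1.63. Without GFP replicate 2 they were −1.08, −0.12 and −0.35, and SOX9_WT minus GFP was 0.75. Of the 5 marker lists, the sums of 2 were highest in SOX9_WT. The mature enterocyte list summed to 991 to 1368 CPM there against 638 to 715 CPM in GFP, 724 to 1123 CPM in M228, 613 to 751 CPM in M303 and 630 to 680 CPM in M379, so that it overlapped with M228 alone. The leukocyte list, nearly all LYZ, summed to 2568 to 3544 CPM in SOX9_WT against 1405 to 2430 CPM in GFP, 636 to 1014 CPM in M228, 810 to 1555 CPM in M303 and 1021 to 1441 CPM in M379. The genes of the enterocyte list did not all share its order, and with 3 of 10 above 1 CPM in every library its sum can rest on few genes. In SOX9_WT minus GFP 6 of the 8 tested mature enterocyte genes lay above 0, while ALPI (−0.37 ± 0.48) and FABP2 (−0.27 ± 0.24) lay below it. None passed edgeR's test in the fit of groups alone. KRT20, 1 of the 6, gave 0.78 ± 0.17 (adjusted p 0.139 in edgeR). With the replicate number as a block, it gave 0.76 ± 0.13 (adjusted p 0.0337 in edgeR). Equal-numbered libraries of SOX9_WT and GFP did not all deviate together (r = 0.136, −0.03 and 0.116). The gut epithelial list (12837 to 16978 CPM in SOX9_WT) overlapped with all other groups, the hepatocyte list was lowest in SOX9_WT at 0.973 to 1.22 CPM, and the fibroblast list lay at 3.92 to 4.89 CPM there and 5.37 to 6.28 CPM in M228. The part of these lists in the CPS1 and CES2 differences was not tested.

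HGD was higher in M303 and M379 than in the other 3 groups. GFP libraries gave 3.04, 3.75 and 2.88 CPM. SOX9_WT gave 2.14, 3.19 and 2.29 CPM, and M228 gave 3.14, 3.67 and 3.45 CPM. M303 gave 6.12, 7.16 and 6.78 CPM, and M379 gave 4.23, 8.05 and 6.48 CPM. The 6 libraries of M303 and M379 all exceeded the 9 others, with M379 replicate 1 closest to them. The means were 6.69 ± 0.527 CPM (SD, n = 3) for M303, 6.25 ± 1.92 for M379, 3.42 ± 0.267 for M228, 3.22 ± 0.463 for GFP and 2.54 ± 0.567 for SOX9_WT. M303 did not separate from M379, and M228, GFP and SOX9_WT overlapped each with the next.

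M303 minus SOX9_WT gave an HGD log2 fold change of 1.40 ± 0.23 (SE), 2.63-fold higher, and M379 minus SOX9_WT gave 1.30 ± 0.24, 2.46-fold higher. Both were called, among 0.384% and 0.124% of all genes tested, and HGD was the 1 enzyme of 5 called in either. Each call held in 1 of 6 fits that left out a library, that without M303 replicate 1 (1.46) and that without M379 replicate 1 (1.51). It was lost without M303 replicate 2 (1.34) or 3 (1.38), without M379 replicate 2 (1.08) or 3 (1.27), and without any 1 of the SOX9_WT libraries, at 1.27 to 1.59 for M303 and 1.17 to 1.5 for M379. The M379 call was also lost with RLE size factors in place of TMM, at 1.30. Against GFP the estimates were 1.04 ± 0.24 for M303 and 0.95 ± 0.25 for M379, with no overlap and no call. In these 2 comparisons 0.118% and 0.0371% of all genes were called, and none of the 5 enzymes. M303 and GFP libraries of equal number deviated together, and with the replicate number as a block the M303 difference was 1.11 ± 0.18 and was called, as were 0.526% of all genes. For M379 minus GFP the block gave 0.99 ± 0.18, not called, with 0.105% of genes called. DESeq2 (1.03 ± 0.27) and the fit with no filter on low counts (1.07 ± 0.28) also called HGD in M303 minus GFP, among 0.551% and 0.568% of all genes. HGD in M228 differed from GFP by 0.07 ± 0.26 and from SOX9_WT by 0.42 ± 0.25, and SOX9_WT from GFP by −0.35 ± 0.26, none called and all with overlapping libraries.

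SI, the sucrase-isomaltase gene of the enterocyte brush border, was also high in the mutants. It lay at 1.22, 0.596 and 0.428 CPM in GFP, 1.65, 1.15 and 0.955 CPM in SOX9_WT, 3.91, 1.70 and 2.43 CPM in M228, 4.87, 3.77 and 3.23 CPM in M303 and 3.42, 2.08 and 1.25 CPM in M379. M303 lay wholly above GFP and SOX9_WT, while M379 overlapped with SOX9_WT and M228 was high as well, unlike for HGD. SI rose in M303 minus GFP (2.72 ± 0.46, adjusted p 0.0328 in edgeR), the 1 of 8 tested mature enterocyte genes to pass. In M379 minus GFP it gave 1.89 ± 0.49 (0.344), and in M303 minus SOX9_WT 1.61 ± 0.37 (0.0815), or 1.67 ± 0.22 (0.00169) with the replicate number as a block. In M303 minus SOX9_WT 4 of the 8 tested mature enterocyte genes lay above 0. Besides SI these were FABP1 (1.27 ± 0.63), ALPI (1.27 ± 0.39) and FABP2 (0.69 ± 0.21), which did not pass. SLC26A3 (−1.42 ± 0.57), KRT20 (−0.74 ± 0.17), CA1 (−0.68 ± 0.75) and ANPEP (−0.35 ± 0.54) lay below 0 and did not pass either. With the replicate number as a block, SLC26A3 (−1.56 ± 0.22, adjusted p 0.00227 in edgeR) and KRT20 (−0.73 ± 0.13, 0.0123) fell. The part of these markers in the HGD differences was not tested.

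CES2 was higher in SOX9_WT than in every other group. The SOX9_WT libraries gave 71.5, 75.2 and 61.0 CPM. GFP gave 38.3, 45.1 and 41.1 CPM, and M228 gave 37.7, 46.6 and 41.9 CPM. M303 gave 45.7, 51.4 and 43.1 CPM, and M379 gave 53.0, 56.4 and 49.3 CPM. The lowest SOX9_WT library exceeded the highest of the 12 others. Means were 69.2 ± 7.38 CPM (SD, n = 3) in SOX9_WT, 52.9 ± 3.53 in M379, 46.7 ± 4.26 in M303, 42.0 ± 4.47 in M228 and 41.5 ± 3.44 in GFP. After SOX9_WT each group overlapped with the next, while M379 lay wholly above GFP.

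M228 minus SOX9_WT gave a CES2 log2 fold change of −0.72 ± 0.13 (SE), 1.65-fold lower, and was called. The call was kept without M228 replicate 2 (−0.80) or SOX9_WT replicate 3 (−0.81). It was lost without M228 replicate 1 (−0.65) or 3 (−0.72) and without SOX9_WT replicate 1 (−0.70) or 2 (−0.66). SOX9_WT minus GFP gave 0.73 ± 0.13, and M303 minus SOX9_WT −0.57 ± 0.13. Neither was called without the block, although libraries did not overlap in either. For M303 and SOX9_WT, whose libraries of equal number deviated together, the block gave −0.57 ± 0.10 and a call, among 1.6% of all genes. DESeq2 called CES2 in both, at 0.72 ± 0.14 and −0.58 ± 0.13, among 0.415% and 1.05% of all genes, and the fit with no filter called the first (0.74 ± 0.18), among 0.482%. M379 minus SOX9_WT gave −0.39 ± 0.13 with no call. Against GFP, CES2 differed by 0.01 ± 0.13 in M228, 0.17 ± 0.13 in M303 and 0.34 ± 0.13 in M379, none called, with overlap in all but M379. Of the CES2 exon bases 10.9% are shared with other annotated genes, 1 of them on the opposite strand, and reads were counted without strand. Reads within these bases cannot be assigned to 1 gene, and whether they entered the CES2 count was not tested.

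**Figure D1:**
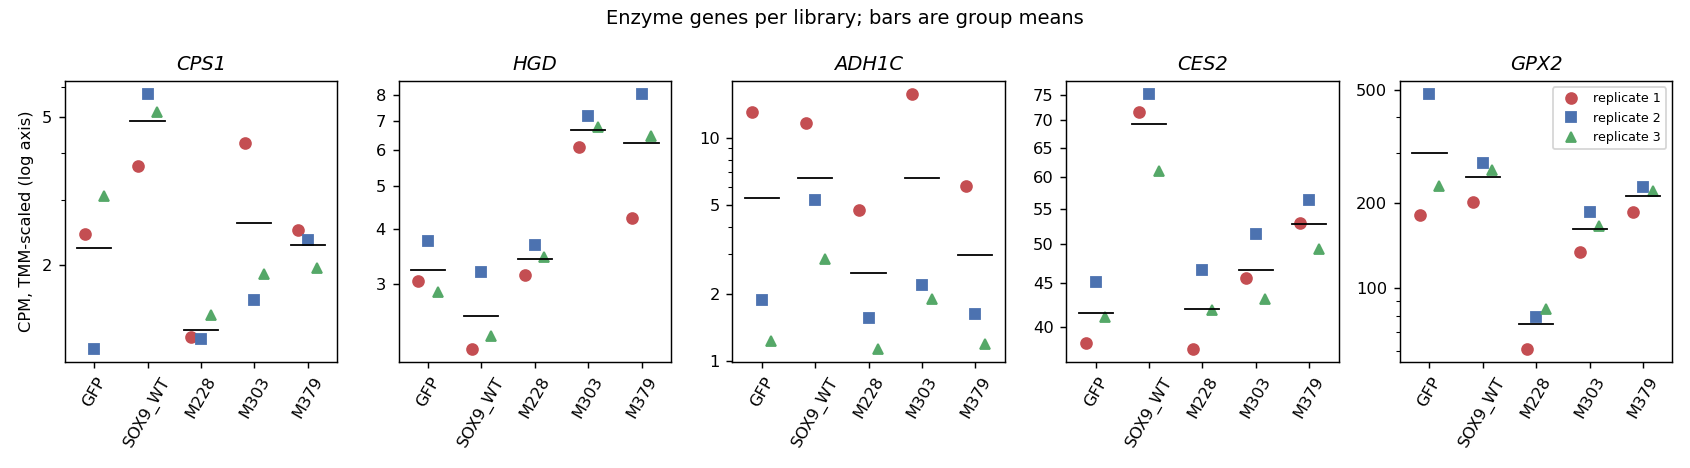
Levels of the 5 enzyme genes in each of the 15 libraries, in TMM-scaled CPM on log axes, by group (x axis) with replicate 1, 2 and 3 as circle, square and triangle and the group mean as a bar. GPX2 is lowest in M228 (61.1 to 84.1 CPM), CES2 highest in SOX9_WT (61.0 to 75.2 CPM), HGD highest in M303 and M379, and ADH1C highest in replicate 1 of every group.

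ADH1C was higher in replicate 1 than in replicates 2 and 3 of every group. Replicate 1 gave 13.1 CPM in GFP, 11.7 in SOX9_WT, 4.74 in M228, 15.8 in M303 and 6.11 in M379. Replicate 2 gave 1.87, 5.29, 1.55, 2.19 and 1.62 CPM in the same order. Replicate 3 gave 1.22, 2.87, 1.13, 1.90 and 1.19 CPM. Replicate 2 lay above replicate 3 in each of the 5 groups, and closer to it than to replicate 1. The reads behind these values were 43 to 529 in replicate 1 and 11 to 78 in replicates 2 and 3.

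Replicate 1 exceeded the geometric mean of replicates 2 and 3 by 8.64-fold in GFP, 3-fold in SOX9_WT and 3.58-fold in M228. The excess was 7.74-fold in M303 and 4.39-fold in M379. With a model holding group and replicate number, replicate 1 minus replicates 2 and 3 gave an ADH1C log2 fold change of 2.32 ± 0.19 (SE), 5-fold higher. It was called, as were 17.7% of all genes tested, 9.29% in the higher and 8.36% in the lower direction. Without GFP replicate 1, the shallowest library, the ADH1C value was 2.19 ± 0.19. It was 2.62 without the replicate 2 libraries and 2.07 without the replicate 3 libraries, called in each.

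Between groups no ADH1C difference was called in the fit of groups alone on filtered genes, and all groups overlapped. The spread within groups in that fit includes the replicate 1 shift. Group means of 6.63 ± 7.94 CPM (SD, n = 3) in M303, 6.61 ± 4.55 in SOX9_WT, 5.39 ± 6.67 in GFP, 2.97 ± 2.72 in M379 and 2.47 ± 1.97 in M228 carried SDs of 0.688 to 1.24 times the mean. M228 minus SOX9_WT gave −1.41 ± 0.96 and M379 minus SOX9_WT gave −1.20 ± 0.93. With no filter on low counts these were −1.42 ± 0.27 and −1.22 ± 0.26 and both were called, among 0.857% and 0.367% of all genes. They moved with the replicate 1 libraries, to −2.40 without M228 replicate 1 and −2.28 without M379 replicate 1, and to −0.70 and −0.49 without SOX9_WT replicate 1. M303 minus SOX9_WT stood at −0.01 ± 0.86 with all libraries and at −1.73 without M303 replicate 1. M303 minus GFP likewise went from 0.79 ± 1.00 to −0.89 without that library. With replicates 2 and 3 alone, SOX9_WT minus GFP was 1.44 ± 0.37 and M228 minus SOX9_WT was −1.69 ± 0.40, neither called. Reads that cannot be placed uniquely were not counted. Of the 50-base stretches of the ADH1C transcript, 20.9% also occur in ADH1A or ADH1B. The sequenced reads were longer than these stretches, so a read covering such a stretch may still be placed uniquely. Whether reads were left out of the ADH1C level for this reason was not tested.

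**Figure D2:**
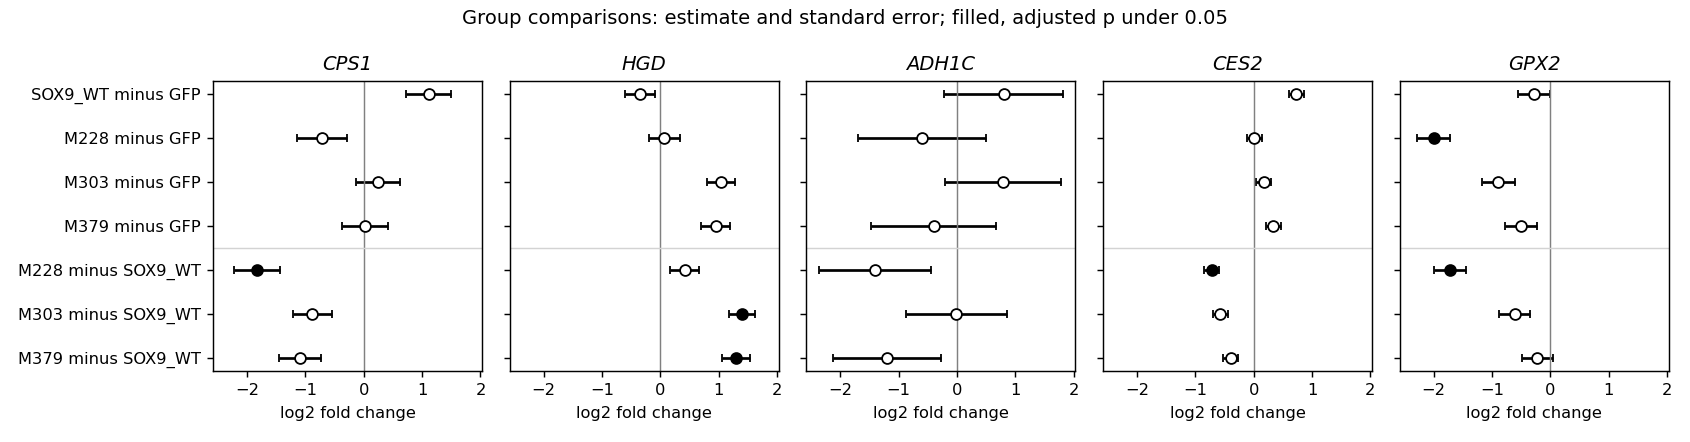
Log2 fold changes of the 5 enzyme genes (x axis) in 7 group comparisons (rows), as the edgeR estimate with its standard error, filled where the adjusted p was under 0.05. The 4 upper rows share the GFP libraries and the 3 lower rows share the SOX9_WT libraries. Filled points are GPX2 in M228 against GFP and SOX9_WT, CPS1 and CES2 in M228 against SOX9_WT, and HGD in M303 and M379 against SOX9_WT, while the ADH1C bars are the longest.

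With replicates 2 and 3 alone, GPX2 in M228 minus GFP (−2.13 ± 0.29) was the 1 call kept of these 6, in a fit of fewer libraries.

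For the other 4 enzymes the estimates of replicate 1 minus replicates 2 and 3 ran from −0.48 to 0.27. GPX2 was lowest in replicate 1 in 5 of 5 groups, by −0.87 log2 units in GFP and −0.27 to −0.42 in the rest. Its replicate 1 estimate was −0.48 ± 0.13 and was called. The call was kept without the replicate 2 libraries (−0.33) and lost without the replicate 3 libraries (−0.59) or without GFP replicate 1 (−0.37). HGD was lowest in replicate 1 in 4 of 5 groups, with an estimate of −0.35 ± 0.12 and no call. CES2, at −0.07 ± 0.07, and CPS1, at 0.27 ± 0.26, were not called. CPS1 replicate 1 was the highest library in M303 and M379 and the lowest in SOX9_WT. The summed gut epithelial markers also differed by replicate number, at 10997 to 15138 CPM in replicate 1 and 16538 to 25673 CPM in replicates 2 and 3, with 2 of 10 genes higher and 3 lower in edgeR's test. The mature enterocyte list summed to 630 to 991 CPM in replicate 1 and 613 to 1368 CPM in the others, with 5 of 8 tested genes higher and none lower. Their part in the ADH1C and GPX2 differences was not tested.

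**Figure D3:**
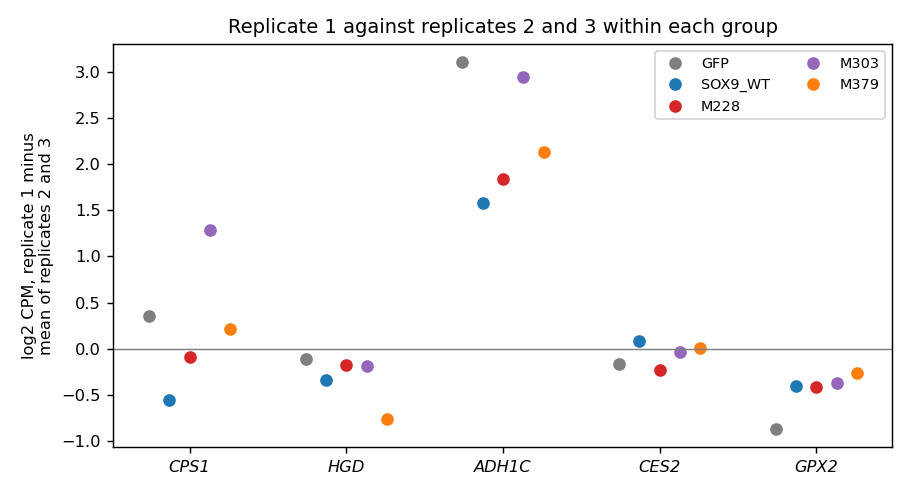
Difference in log2 CPM between replicate 1 and the mean of replicates 2 and 3 (y axis) for each enzyme gene, 1 point per group. ADH1C lies between 1.58 and 3.11 in the 5 groups, GPX2 lies below 0 in all 5, and CPS1 has points on both sides of 0.

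Pathway genes around the 5 enzymes came from 7 lists written by function, which hold 150 genes beside the 5. Of these, 127 were tested. In the 4 comparisons against GFP none passed edgeR's test, and the median log2 fold changes of single lists ran from −0.26 to 0.16, beside 0.00 to 0.01 for all genes. At an unadjusted p under 0.05 in edgeR, SOX9_WT, M228, M303 and M379 minus GFP held 9, 24, 16 and 11 of the 127 genes. Over all 16160 genes tested the counts were 1723, 1515, 1260 and 1094. DESeq2 called 0, 6, 3 and 0 of the 127 genes, and 67, 163, 89 and 50 of all genes. The tyrosine breakdown list was the farthest from 0, with a median of −0.26 in SOX9_WT minus GFP and 0 of 8 genes above 0, though no gene of it passed.

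Against SOX9_WT, 1 of the 127 genes (0.787%, against 0.569% of all genes tested) passed in M228 and none in M303 or M379 with edgeR. A share that rests on 1 gene says nothing particular about the lists. At an unadjusted p under 0.05 in edgeR, M228, M303 and M379 held 15, 18 and 16 of the 127 genes. Over all 16160 genes the counts were 1074, 1020 and 759. DESeq2 called 5, 2 and 0 of the 127 genes, and 227, 170 and 71 of all genes. The lists were chosen with earlier results of these data known, so these counts are a description. The 1 gene that passed in M228 with edgeR was AKR1C1, an aldo-keto reductase of steroids and aldehydes. AKR1C1 lay at 13.9, 14.6 and 13.9 CPM in M228 and at 5.69, 5.22 and 4.68 CPM in SOX9_WT. The M228 libraries were far above those of SOX9_WT, a log2 fold change of 1.43 ± 0.25 with an adjusted p of 0.015 in edgeR. No pathway gene passed in any of the 6 fits that left out 1 library of M228 or SOX9_WT. AKR1C1 has close relatives in AKR1C2 and AKR1C3, so reads may be split between them. AKR1C2 was at 11.5 to 13 CPM in M228 and 4.68 to 8.75 CPM in SOX9_WT.

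With the replicate number as a block, where libraries of equal number deviated together, more pathway genes passed, named here after their values were seen. In M228 minus GFP there were 7 of the 127 tested, against 181 of all 16160 genes (1.12%). AKR1C1 (1.32 ± 0.20, adjusted p 0.00561 in edgeR), the cholinesterase gene BCHE (1.06 ± 0.19, 0.0163) and the transcription factor genes NR5A2 (1.26 ± 0.26, 0.0299) and FOXA1 (0.72 ± 0.13, 0.0158) rose. FOXA2 (−1.04 ± 0.17, 0.00868) and the glutathione transferase genes GSTM3 (−0.66 ± 0.14, 0.033) and GSTM4 (−0.63 ± 0.14, 0.0411) fell. In M303 minus GFP BCHE, FOXA1 and UGT1A1, which conjugates bilirubin, rose by 0.66 to 1.13. These were 3 of the 127, against 85 of all 16160 genes (0.526%). In M303 minus SOX9_WT AKR1C1, BCHE and UGT1A1 rose by 0.63 to 0.99, and ALDH1A3 (−1.07 ± 0.19), which makes retinoic acid, and GSTM3 (−0.79 ± 0.13) fell. Here 3 of the 127 rose and 2 fell, against 259 of all 16160 genes called (1.6%). None passed in M379 minus GFP, against 0.105% of all genes.

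Between replicate numbers, 42 of the 127 genes (33.1%) passed in replicate 1 minus replicates 2 and 3, 31 higher and 11 lower, against 17.7% of all genes tested. The cytochrome P450 and conjugation list held 12 higher and 3 lower of 32. Its largest changes were in CYP4F2, a fatty acid hydroxylase (1.95 ± 0.29, adjusted p 0.000847 in edgeR), UGT2B17 and UGT2B15, which conjugate steroids (1.81 ± 0.27, 0.000797 and 1.14 ± 0.31, 0.0212), and the sulfotransferase gene SULT1B1 (1.70 ± 0.36, 0.00706). CYP4F2 was at 4.56, 1.19 and 0.918 CPM in the GFP libraries and at 9.55, 1.08 and 1.33 CPM in M303. In SOX9_WT, however, its replicate 3 (2.20 CPM) lay above replicate 1 (2.14 CPM). UGT2B15 and UGT2B17 are near copies, as the UGT1A genes share exons, so their separate values are uncertain.

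Among the alcohol, aldehyde and retinol genes 5 of 18 rose and 2 fell in replicate 1. ADH6, a further alcohol dehydrogenase gene, rose by 1.07 ± 0.14 (adjusted p 0.000397 in edgeR) and DHRS3, which reduces retinal, by 1.32 ± 0.16 (0.000261). ADH6 was highest in replicate 1 in 5 of 5 groups, as ADH1C was, with 11.2, 4.34 and 4.41 CPM in GFP and 9.82, 3.81 and 3.46 CPM in M303. DHRS3 was also highest in replicate 1 of each group. ALDH3A1, an aldehyde dehydrogenase, fell (−0.73 ± 0.13, 0.00222). AKR1C3 rose by 0.47 ± 0.10 (0.00637).

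Of the peroxide and glutathione genes 2 of 21 rose and 4 fell in replicate 1. Catalase (CAT) rose by 0.61 ± 0.08 (adjusted p 0.000454 in edgeR) and the plasma peroxidase GPX3 by 0.88 ± 0.26 (0.0338). Thioredoxin (TXN, −0.51 ± 0.10, 0.00462) and peroxiredoxin PRDX1 (−0.45 ± 0.10, 0.00627) fell, the direction also seen for GPX2. Of the urea cycle and glutamine genes OAT, which links ornithine to glutamate, rose (0.48 ± 0.07, 0.000603), as did the glutamine synthetase gene GLUL (0.25 ± 0.07, 0.0219). ODC1, the first enzyme of polyamine synthesis, fell (−0.70 ± 0.08, 0.000215). In the tyrosine list DDC rose (0.33 ± 0.07, 0.00852) and GOT2 fell (−0.27 ± 0.07, 0.0151). The hydrolase list held 3 of 11 higher, CMBL (0.61 ± 0.07, 0.00026), EPHX2 (0.60 ± 0.10, 0.00118) and the CES2 paralog CES3 (0.31 ± 0.08, 0.0198), and none lower.

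The regulators list held 6 of 22 higher and none lower in replicate 1. The bile acid receptor gene NR1H4 rose by 0.88 ± 0.16 (adjusted p 0.00298 in edgeR), the xenobiotic receptor gene NR1I2 by 0.66 ± 0.16 (0.0137) and PPARA, a regulator of fatty acid oxidation, by 0.59 ± 0.14 (0.0107). CDX2, which specifies intestinal identity, also rose (0.47 ± 0.10, 0.0068). It ranged from 227 to 441 CPM over all libraries. HNF4A lay at 94.5 to 140 CPM in the 15 libraries. The replicate count depended on which libraries were kept, with 69 pathway genes passing without the replicate 2 libraries and 8 without the replicate 3 libraries.

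**Figure D4:**
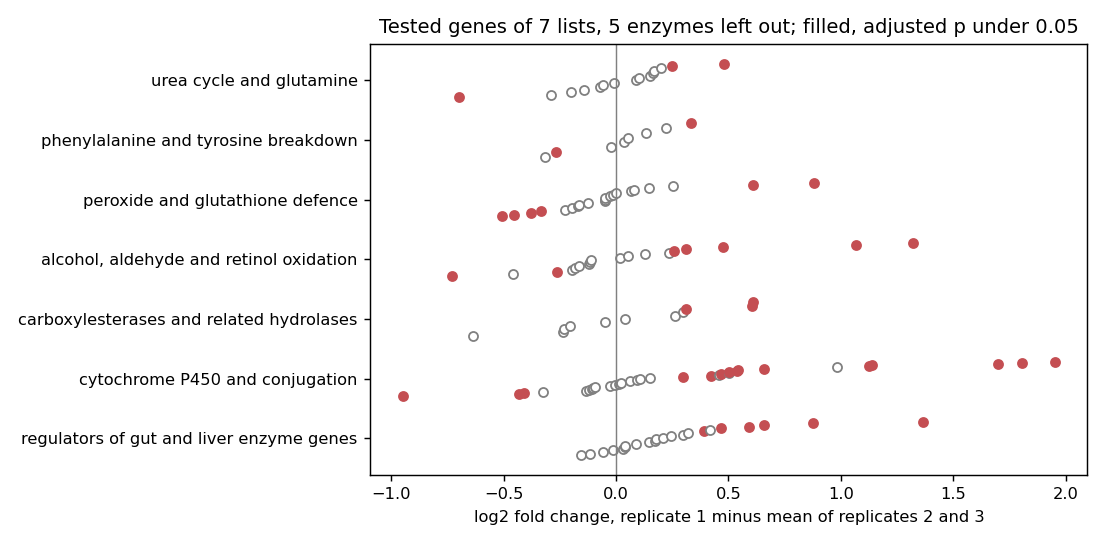
Log2 fold change of replicate 1 minus replicates 2 and 3 (x axis) for the 127 tested genes of 7 lists (rows), the 5 enzymes left out, filled where the adjusted p was under 0.05. Filled points lie mostly right of 0 for the P450 and conjugation list (12 against 3) and only right of 0 for the regulators and hydrolases, and CYP4F2 lies farthest at 1.95.

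Compared per length, as RPKM (CPM per kilobase of exon), the 5 enzymes ranged widely. Mean GPX2 levels were 49.9 RPKM in M228 to 198 RPKM in GFP, CES2 7.77 to 13 RPKM, ADH1C 1.57 to 4.21 RPKM, HGD 0.947 to 2.49 RPKM and CPS1 0.122 to 0.442 RPKM. In the urea cycle, the later cytosolic enzymes ASS1 and ASL were far more abundant than CPS1. ASS1 lay at 192 to 240 RPKM and ASL at 9.51 to 10.7 RPKM, whereas NAGS, which makes the activator of CPS1, lay at 2.31 to 2.58 RPKM. OTC, which uses the product of CPS1, had at most 19 reads in a library and at most 0.608 CPM, and ARG1 had at most 1 read.

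Around HGD, the enzyme before it (HPD) lay at 0.158 to 0.288 RPKM, with 0.427 to 0.770 CPM in M303 against 0.245 to 0.912 CPM in GFP, which overlapped. The enzymes after it were at 2.51 to 3.01 RPKM (GSTZ1) and 0.609 to 1.01 RPKM (FAH). GPX1, the ubiquitous paralog of GPX2, lay at 96.6 to 115 RPKM in the 5 groups, and its M228 libraries (104 to 126 CPM) overlapped with GFP (103 to 177 CPM). ADH1A had no read in any library and ADH1B 1 read in 1 library, so ADH1C was the class I alcohol dehydrogenase gene detected. CES1, the main liver carboxylesterase, had no read, and CES3 lay at 1.88 to 2.38 RPKM.

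**Figure D5:**
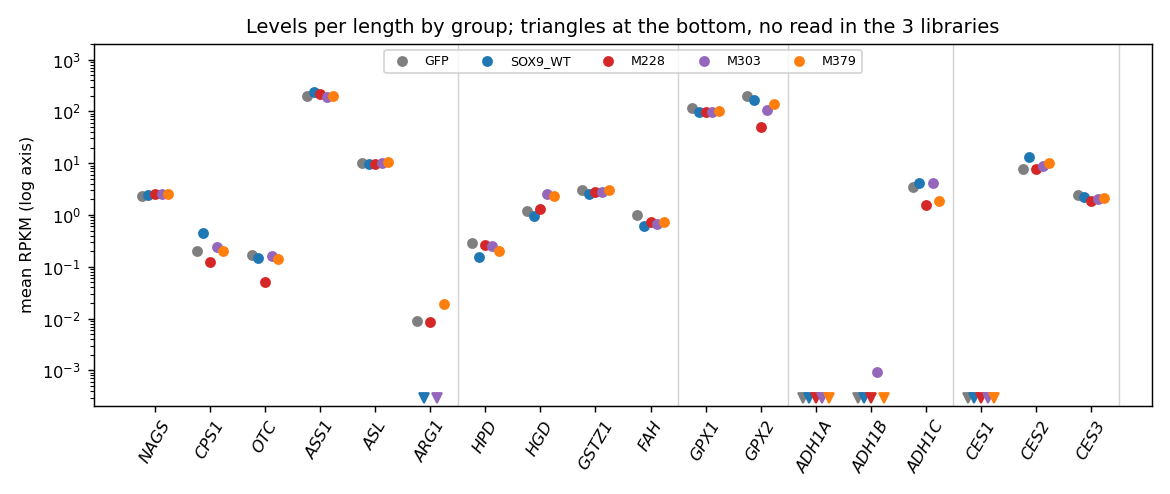
Mean level per length (RPKM, log axis) in each of the 5 groups for the 5 enzymes and their pathway neighbours or paralogs, with triangles at the bottom where no read was found in the 3 libraries of a group. ASS1 lies at 192 to 240 RPKM and CPS1 at 0.122 to 0.442 RPKM, and GPX2 spreads by group more than GPX1.

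The genes whose log2 CPM followed each enzyme most closely over the 15 libraries were named by Pearson correlation, as a description without a p, since libraries share groups, depth and replicate numbers. For ADH1C they were LRRC31 (r = 0.967), LINC00963 (0.956) and ARSD (0.946). For GPX2 they were UCP2 (0.898), MUC1 (0.887) and ITPKA (0.874), and for HGD TMPRSS4 (0.892), PDXP (0.862) and SEPTIN9 (0.843). CPS1 was nearest to MYRFL (0.870), LINC01168 (0.867) and NPAS2 (0.848), and CES2 to C1orf116 (0.876), COL6A1 (0.861) and PMP22 (0.845). The geometric mean of TMPRSS4 was 117 CPM in M303 and 103 CPM in M379 against 73.2 CPM in GFP, and that of PMP22 was 24.6 CPM in SOX9_WT against 11.8 CPM in GFP. Among the 5 enzymes the correlations ran from −0.285 (CPS1 with HGD) to 0.638 (CPS1 with CES2). CPS1 and CES2 shared their highest group, SOX9_WT.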

How the data were processed

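Poly(A)-selected RNA of 15 libraries, 5 groups of 3, was sequenced as paired 150-base reads, per the labels' protocols. The submitters' processing notes name STAR 2.7.0a as aligner and hg38 as build. Per the file headers, the authors counted reads per gene with featureCounts 2.0.1 over Ensembl 101 exons (GRCh38), and raw counts are what they deposited. In that command strand, pair and multi-mapping options are unset, so strands were pooled, each mate was counted as a read, and reads placed at several loci were not counted. The deposited normalized table was not used, since 3 of its columns match no sample label.

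Genes were filtered (filterByExpr), scaled by TMM and fitted over the 15 libraries by quasi-likelihood in edgeR 4.0.16 (R 4.3.3), with a mean per group (10 residual degrees of freedom). Two-sided p-values were adjusted over 16160 genes in each comparison (Benjamini-Hochberg), and a call is an adjusted p under 0.05. The replicate comparison used group and replicate number (8 residual degrees of freedom). The steps were tested on simulated data. RPKM values are TMM-scaled CPM divided by the exon length in the count table. Total reads ranged from 3054755 to 31704249, and floors of 3 reads cover counting error only.

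The 5 enzymes, the 7 pathway lists and the marker lists were chosen with earlier results of these data known. Named genes are the 5 enzymes, up to 4 called genes of each list and comparison by size of change, the paralogs and pathway neighbours, HNF4A, CDX2 and SOX9, and the 3 most correlated genes of each enzyme, and some genes that this rule names are not reported here. Of the 150 pathway genes 149 were matched in the table. The alternatives were a replicate block, RLE size factors, no filter, DESeq2 1.42.0 and leaving out each library. Fits of replicates 2 and 3 alone and the replicate comparison without GFP replicate 1 were added after seeing the data.

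Equal replicate numbers were taken to pair libraries where the deviations from the group means of every equal-numbered pair correlated above 0.1. This held for M228, M303 and M379 minus GFP and for M303 minus SOX9_WT, with a lowest r of 0.101. The limit of 0.1 was a choice, and M228 minus SOX9_WT missed it through replicate 2 alone (r = 0.0641, beside 0.293 and 0.222). The pairing rests on these correlations alone, since no label ties a replicate number to a day or batch.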

Additional observations from a re-analysis of the deposited data

Results flagged for a closer look

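CPS1 went opposite ways in replicate 1 in different groups. In log2 CPM, replicate 1 minus the mean of replicates 2 and 3 was 1.29 in M303 and 0.21 in M379, where it was the highest library, and -0.56 in SOX9_WT, where it was the lowest. The difference between these groups was not tested.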

How the results depend on the processing

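Counts of called genes moved by over 1.5 times with the settings. With the replicate block they were 79 (SOX9_WT minus GFP), 181 (M228), 85 (M303) and 17 (M379) against GFP, and 319 (M228), 259 (M303) and 106 (M379) against SOX9_WT, where the main counts were 5, 39, 19 and 6, and 92, 62 and 20. In the same order, no filter gave 180, 282, 212 and 74, and 320, 273 and 137, and DESeq2 gave 67, 163, 89 and 50, and 227, 170 and 71. Replicates 2 and 3 alone, chosen after seeing the data, gave 1, 9, 4 and 3, and 21, 7 and 1, with fewer samples. RLE size factors gave 3 for M379 minus GFP. Leaving out 1 library gave 0 to 40, 15 to 143, 4 to 31 and 2 to 12 against GFP, where the highest were without GFP replicate 3, and 27 to 44, 9 to 33 and 1 to 8 against SOX9_WT. The replicate comparison (2853) gave 1804 without GFP replicate 1, and 5477 and 271 without the replicate 2 and 3 libraries. The cause was not tested.

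Of the 127 pathway genes, the block called 7 (M228) and 3 (M303) against GFP, and 8 (M228), 5 (M303) and 1 (M379) against SOX9_WT. No filter called 1 (SOX9_WT), 10, 8 and 1 against GFP, and 11, 7 and 1 against SOX9_WT. DESeq2 called 6 and 3 in M228 and M303 against GFP, and 5 and 2 against SOX9_WT. Replicates 2 and 3 alone called 0 in M228 minus SOX9_WT. Leaving out 1 library called 0 to 1 (SOX9_WT), 0 to 4 (M228), 0 to 1 (M303) and 0 to 1 (M379) against GFP, 0 against SOX9_WT, and 8 to 69 between replicate numbers.

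None of the enzyme differences that were called changed sign in the alternatives run, while some that were not called did, such as GPX2 in SOX9_WT minus GFP, CPS1 in M303 minus GFP and ADH1C in M303 minus GFP. Over all 8 comparisons, with 83 alternative fits for each enzyme, estimates moved by more than the spread between replicates in 8 fits for CPS1, 4 for GPX2, 2 for ADH1C and 0 for HGD and CES2. That spread is the gene's own SD within groups in log2 CPM, which for ADH1C includes the replicate 1 shift. The low ADH1C count is therefore no measure of stability. Its M303 minus GFP estimate ran from -0.89 to 2.15 in the fits without 1 library. The block made further calls in comparisons that missed the pairing limit of 0.1. These were CES2 in SOX9_WT minus GFP (0.73 ± 0.10) and ADH1C in M228 minus SOX9_WT (-1.53 ± 0.33). The block changed no other enzyme's call beyond these and the 2 given with HGD and CES2. At the depth of GFP replicate 1, CPS1 (8 reads) and HGD (10 reads) rest on few counts.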
